A study of Mus musculus with 11 samples.

Results

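The inflammasome genes of renal CD4+ T cells were followed through 11 RNA sequencing libraries taken 2 days after ischemia-reperfusion injury (IRI) of the mouse kidney. They are the 8 symbols Nlrp3, Aim2, Pycard, Casp1, Casp4, Gsdmd, Il1b and Il18 among the 35814 symbols of the count table, and each had its own row. The symbols were selected on earlier results of these same libraries, across all 3 genotypes, so the comparisons that follow describe their values and are no independent test of them. Each library came from 1 C57BL/6 mouse. The 3 CD4cre mice carry Cre recombinase under the CD4 promoter and are labelled WT. The 5 CD4IKK1Δ mice carry the same Cre with a floxed Chuk gene, which encodes the kinase IKK1, and the 3 CD4NIKΔ mice carry it with a floxed Map3k14 gene, which encodes NIK. All the mice therefore carry the Cre, all had IRI, and no uninjured mouse is among them. The CD4 promoter is active in developing thymocytes, before the CD4 and CD8 lineages part, so deletion by this Cre is not limited to CD4+ cells. The cells were enriched magnetically and sorted, and the RNA was amplified before sequencing.

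Inflammasomes are protein platforms that assemble in the cytosol when a sensor meets a danger signal. The sensors NLRP3, which responds to membrane damage and ion fluxes, and AIM2, which binds DNA in the cytosol, recruit the adaptor ASC (the product of Pycard), and ASC recruits pro-caspase-1 (Casp1). Caspase-1 cuts the precursors of interleukin-1β (Il1b) and interleukin-18 (Il18) into their active forms and cuts gasdermin D (Gsdmd), whose fragment forms pores in the plasma membrane and starts the lytic death called pyroptosis. Mouse Casp4, also known as caspase-11, binds bacterial lipopolysaccharide in the cytosol and cuts gasdermin D without the platform. The pathway is best known in macrophages and other myeloid cells. In the kidney, interleukin-18 is also made by tubular epithelium, and T cells carry its receptor.

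The libraries held between 15751632 and 25737046 estimated counts, and the markers of cell types already set the 3 groups apart. The summed level of 15 T cell markers, in CPM (counts scaled to a common library size with TMM factors), ran from 1596 to 3073 in CD4cre, from 12.4 to 1373 in CD4IKK1Δ and from 8495 to 12550 in CD4NIKΔ, so that the 3 ranges did not overlap. CD4IKK1Δ replicates 1 and 2 were the poorest, with 12.4 and 147 CPM, and up to 2 of the 15 markers had no count in a CD4IKK1Δ library. The labelled cell type was therefore hardly visible in CD4IKK1Δ replicate 1, where Trac, the constant region of the T cell receptor alpha chain, was at 0.0640 CPM against 176 to 392 CPM in CD4cre. Summed levels of 8 neuronal markers ran the other way, from 2421 to 2848 CPM in CD4cre, 3016 to 3518 in CD4IKK1Δ and 845 to 1651 in CD4NIKΔ. Against CD4cre the targeted genes did not pass the test, with a log2 fold change of −0.11 for Chuk in CD4IKK1Δ against CD4cre (SE 0.31, FDR = 0.921 by edgeR's quasi-likelihood test) and of 0.30 for Map3k14 in CD4NIKΔ against CD4cre (SE 0.36, FDR = 0.575). In CD4IKK1Δ against CD4NIKΔ, Map3k14 was lower in CD4IKK1Δ (−1.91, SE 0.44, FDR = 0.00418), so it was higher in the libraries labelled as deleted for it. Counts per gene do not show which exons the reads came from, so these values do not check the deletions. In bulk libraries such as these, fewer cells of a type and less RNA per cell cannot be told apart.

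The genes lie apart in the genome except for the 2 caspases. On GRCm39, Casp1 spans 5298508 to 5307290 on the plus strand of chromosome 9 and Casp4 spans 5308828 to 5336783 on the same strand, with 1537 bases between them. Il18 is also on chromosome 9, at 50466081 to 50493633. Aim2 is on chromosome 1 (173178445 to 173293930), Il1b on chromosome 2 (129206490 to 129213059), Pycard on chromosome 7 (127588558 to 127593039), Nlrp3 on chromosome 11 (59432394 to 59457782) and Gsdmd on chromosome 15 (75733974 to 75739257). Part of the exon sequence of 4 of these genes is shared with an annotated noncoding or unclassified gene on the opposite strand, 11.5% for Pycard, 9.42% for Gsdmd, 3.65% for Il1b and 3.51% for Casp1. The counting was not stated to use strand, and reads in those stretches cannot be assigned to 1 strand.

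RefSeq promoter windows, from 250 bases before to 50 bases after a transcription start, were found for 7 of the 8 genes, Gsdmd being without one, and all 9 windows matched the plus or minus strand of GRCm39 exactly and once. The windows of the neighbouring caspases and of Il18 are printed because Casp1 and Casp4 moved together in the libraries below and Il18 did not move with them. They lie on the plus strand at chr9:5298267-5298566 for Casp1, chr9:5308599-5308898 for Casp4 and chr9:50465750-50466049 for Il18. Capitals mark matches to the kappaB motif bound by NF-κB, searched on both strands.
Casp1: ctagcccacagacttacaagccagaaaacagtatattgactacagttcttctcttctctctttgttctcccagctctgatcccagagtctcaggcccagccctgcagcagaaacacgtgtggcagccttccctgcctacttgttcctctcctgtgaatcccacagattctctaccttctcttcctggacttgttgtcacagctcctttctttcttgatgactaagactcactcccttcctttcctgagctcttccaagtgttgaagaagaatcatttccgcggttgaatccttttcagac
Casp4: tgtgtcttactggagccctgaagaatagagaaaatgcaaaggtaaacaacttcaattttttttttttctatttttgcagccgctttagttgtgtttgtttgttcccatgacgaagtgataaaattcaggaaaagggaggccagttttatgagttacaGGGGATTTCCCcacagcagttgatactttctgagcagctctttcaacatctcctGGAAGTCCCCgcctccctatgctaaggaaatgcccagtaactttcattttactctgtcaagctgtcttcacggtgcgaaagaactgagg
Il18: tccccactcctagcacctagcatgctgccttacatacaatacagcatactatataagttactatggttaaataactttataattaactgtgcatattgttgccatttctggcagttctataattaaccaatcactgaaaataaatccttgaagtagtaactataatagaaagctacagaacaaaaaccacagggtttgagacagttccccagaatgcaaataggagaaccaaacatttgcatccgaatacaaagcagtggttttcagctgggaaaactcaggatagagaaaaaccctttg

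In the Casp4 window a pair of overlapping matches on the plus strand began 93 and 92 bases before the start, and another match on the minus strand began 39 bases before it. The Casp1 and Il18 windows held no match to the kappaB motif, nor to the gamma-activated site of STAT proteins (TTCNNNGAA) or the interferon response core bound by IRF proteins. Among the members with a window, only Casp4 and 1 of the windows of Nlrp3 held a match to any of these motifs, the kappaB motif in both. Of 32851 mouse promoter windows of the same length, 8.46% held the kappaB motif, 8.3% the gamma-activated site and 3.44% the interferon response core. A match of letters is a description of the sequence and not a site of binding.

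Both sensors are described first. Aim2 was at 21.5, 11.3 and 12.0 CPM in the CD4cre libraries, at 1.09, 3.93, 1.93, 2.18 and 7.46 CPM in the CD4IKK1Δ libraries and at 46.3, 45.8 and 37.0 CPM in the CD4NIKΔ libraries. The 3 groups did not overlap, and CD4IKK1Δ replicate 5 was the library of its group nearest to CD4cre. Nlrp3 was almost silent everywhere. It had 2, 0 and 1 counts in CD4cre, 0, 7, 0, 11 and 10 counts in CD4IKK1Δ and 0, 12 and 1 counts in CD4NIKΔ, so 7 of the 11 libraries were at or under the floor of 3 counts. Its count was too low for edgeR's expression filter in all 3 comparisons, and no fold change is given for it.

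Pycard, the adaptor that links sensor to caspase, was at 33.5, 33.8 and 13.4 CPM in CD4cre and at 103, 142 and 145 CPM in CD4NIKΔ. In CD4IKK1Δ it was at 3.20, 4.14, 36.5, 8.54 and 5.94 CPM. Replicate 3 of CD4IKK1Δ, which also had the most T cell markers of its group, was above all the CD4cre libraries, and the other 4 were below them.

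Of the caspases, Casp1 separated all 3 groups and Casp4 did not. Casp1 was at 24.6, 19.8 and 18.7 CPM in CD4cre, at 1.09, 4.56, 8.23, 2.23 and 2.65 CPM in CD4IKK1Δ and at 215, 139 and 156 CPM in CD4NIKΔ. No library of 1 group reached the range of another, and the CD4cre libraries lay within a 1.32-fold range. Casp4 was at 5.08, 1.70 and 2.90 CPM in CD4cre and at 22.1, 30.9 and 27.9 CPM in CD4NIKΔ. In CD4IKK1Δ, Casp4 was at 0.512, 0.524, 3.01, 0.397 and 2.74 CPM, which overlapped CD4cre through replicates 3 and 5.

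Gsdmd, the pore-forming effector, was at 17.4, 27.9 and 13.6 CPM in CD4cre and at 72.6, 158 and 141 CPM in CD4NIKΔ. In CD4IKK1Δ it was at 3.46, 0.210, 9.87, 6.35 and 2.88 CPM. The 3 groups did not overlap, and CD4IKK1Δ replicate 2, with 4 counts, was close to the floor.

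Il18 did not follow Casp1, whose product processes it, and Il1b was sparse. Il18 was at 16.0, 11.8 and 14.8 CPM in CD4cre, at 19.3, 9.69, 13.0, 15.0 and 17.9 CPM in CD4IKK1Δ and at 8.37, 6.00 and 7.26 CPM in CD4NIKΔ. The CD4IKK1Δ libraries spanned the CD4cre range, and all the CD4NIKΔ libraries were below both. Il1b had 26, 4 and 2 counts in CD4cre, 0, 0, 0, 0 and 30 counts in CD4IKK1Δ and 25, 26 and 3 counts in CD4NIKΔ. Within each genotype its counts were high in some libraries and at or near 0 in others.

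**Figure D1:**
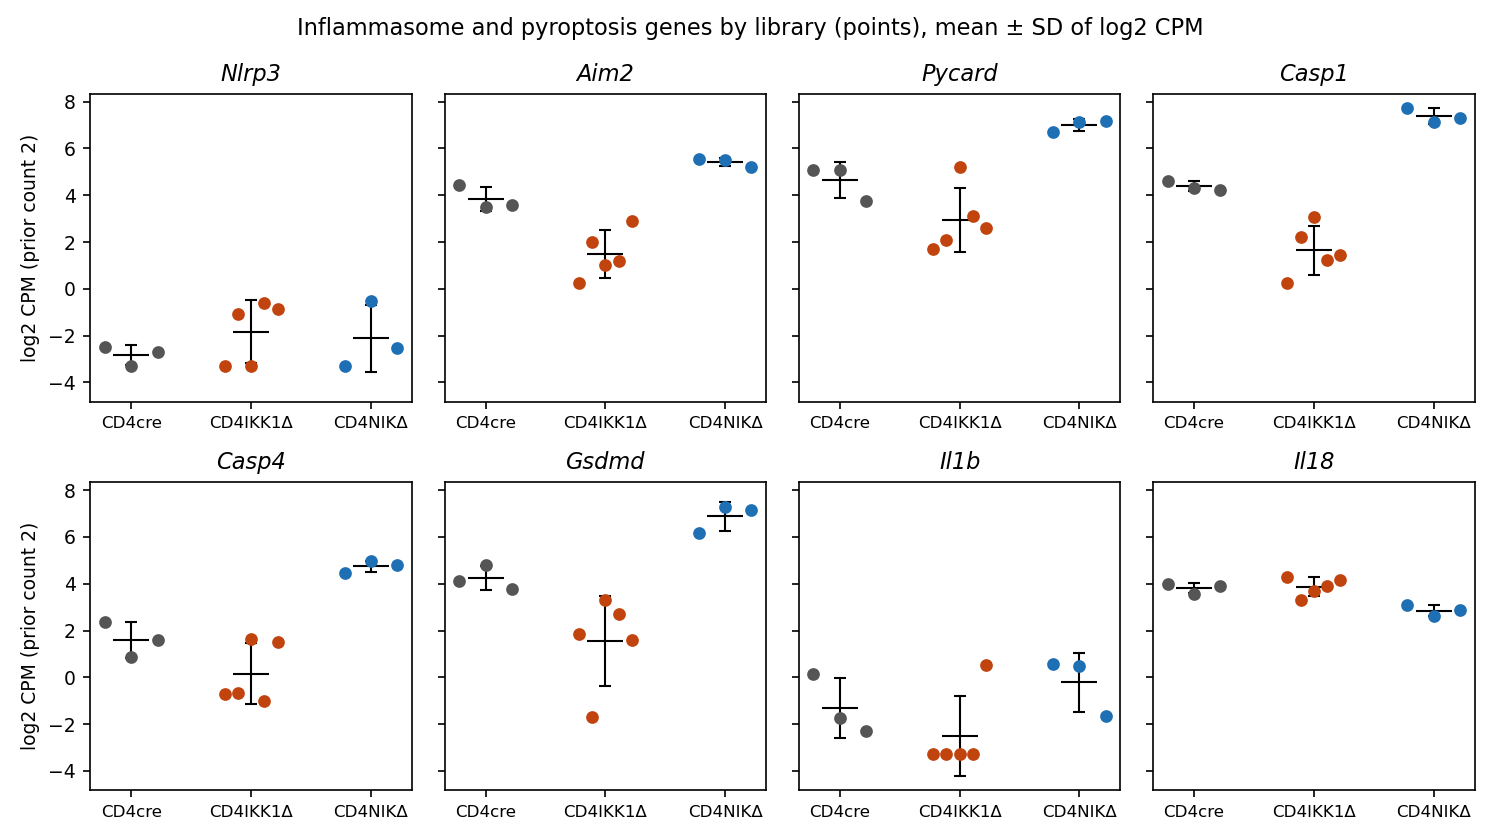
Each panel shows 1 inflammasome gene, with log2 CPM (prior count of 2) on the vertical axis, 1 point per library and the mean ± SD of each genotype in black. Aim2, Casp1 and Gsdmd separate into 3 levels without overlap, Pycard and Casp4 separate CD4NIKΔ from the rest, and Il18 lies lowest in CD4NIKΔ.

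Per kilobase of the canonical transcript, the order of the genes differed between the genotypes. The order depends on the GENCODE lengths, 4.122 kilobases for Pycard and 1.531 for Casp1, which need not be those that kallisto used. Before division by length, Pycard had the highest mean in CD4cre, at 26.9 CPM against 21.1 for Casp1. Casp1 had the highest mean in CD4cre (13.8 ± 2.07 CPM per kilobase, SD, n = 3) and in CD4NIKΔ (111 ± 26.1, SD, n = 3). Il18 followed in CD4cre at 10.5 ± 1.61 and Gsdmd at 9.94 ± 3.73 CPM per kilobase, with spreads that overlapped that of Aim2 (7.19 ± 2.73) and Pycard (6.53 ± 2.84). In CD4NIKΔ, Gsdmd (62.7 ± 22.8), Pycard (31.5 ± 5.61), Aim2 (20.7 ± 2.50) and Casp4 (18.7 ± 3.10) followed, the last 2 within their spread of each other, and Il18 came sixth at 5.32 ± 0.876. In CD4IKK1Δ, Il18 was the highest at 11.1 ± 2.85 CPM per kilobase (SD, n = 5), above Pycard (2.83 ± 3.40), Casp1 (2.45 ± 1.83) and Gsdmd (2.31 ± 1.87), which did not differ beyond their spread. Il1b and Nlrp3 were the lowest in all 3 genotypes.

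The CD4NIKΔ mice are labelled as deleted for Map3k14, which the counts do not check. In CD4NIKΔ against CD4cre, the sensor Aim2, the adaptor, both caspases and gasdermin D were all higher. Casp4 was 8.21-fold higher (log2 fold change 3.04, SE 0.45, FDR = 0.00663), Casp1 8.0-fold (3.00, SE 0.25, FDR = 0.00160), Gsdmd 6.21-fold (2.64, SE 0.38, FDR = 0.00554) and Pycard 4.77-fold (2.25, SE 0.36, FDR = 0.00812). Aim2 was 2.85-fold higher (1.51, SE 0.32, FDR = 0.0180). These 5 of the 7 members tested passed an FDR under 0.05 with more than 2-fold change in edgeR's quasi-likelihood test and none was called lower, where 10.4% of all 15209 genes tested were called higher and 6.99% lower. The call on Aim2 was held in 2 of 6 fits that left out 1 library and was lost without CD4cre replicate 2 (FDR = 0.0574), CD4cre replicate 3 (0.0640), CD4NIKΔ replicate 2 (0.0645) or CD4NIKΔ replicate 3 (0.0532), while the other 4 genes kept theirs in all 6. With all 11 libraries in the fit, Casp1 and Casp4 kept the call, and Gsdmd (FDR = 0.0584), Aim2 (0.0856) and Pycard (0.0941) lost it.

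The cytokines gave another picture in the same comparison. Il18 had a log2 fold change of −0.99 (SE 0.35, FDR = 0.0735), a 1.99-fold lower mean that did not pass the threshold although the groups did not overlap. Il1b had a log2 fold change of 1.12 with an SE of 1.13 (FDR = 0.506), and Nlrp3 was not tested. In 5 members the CD4NIKΔ libraries were all above the CD4cre libraries and in 1 member all below, where 23% and 22.1% of all genes tested were separated in these directions. The median log2 fold change was 2.25 over the 7 members tested and −0.02 over all genes tested.

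CD4NIKΔ libraries also held more T cell transcripts, and the T cell level and the genotype cannot be told apart here. Of the 15 T cell markers 13 were called higher in CD4NIKΔ than in CD4cre and of the 8 neuronal markers 7 were called lower. With the T cell marker score as a covariate, none of the 7 members was called and the log2 fold changes were 3.44 for Casp1 (FDR = 0.538), 1.52 for Casp4 (FDR = 0.895), 0.90 for Aim2 (FDR = 0.916), 0.69 for Gsdmd (FDR = 0.952) and 0.41 for Pycard (FDR = 0.960), and none of the 15209 genes tested was called in that fit.

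In CD4IKK1Δ against CD4cre, which shares its control libraries with the comparison above, no gene passed the threshold. Aim2, Pycard, Casp1, Casp4 and Gsdmd had negative log2 fold changes. Casp1 had a log2 fold change of −2.49 (SE 0.55, FDR = 0.0905), Aim2 −2.16 (SE 0.59, FDR = 0.129) and Gsdmd −2.11 (SE 0.78, FDR = 0.222), and in each all the CD4IKK1Δ libraries were below all the CD4cre libraries. Pycard (−1.21, SE 0.77, FDR = 0.484) and Casp4 (−1.16, SE 0.88, FDR = 0.574) overlapped between the groups. Il18 had a log2 fold change of 0.08 (SE 0.31, FDR = 0.947), and Il1b and Nlrp3 did not pass the filter. Of the 6 members tested 0 were called by edgeR, where 0% of 15653 genes were called lower and 0% higher. At an unadjusted p under 0.05, 3 members were lower and 0 higher, against 8.91% and 7.65% of all genes tested. The groups did not overlap for the same 3 members, against 8.44% of all genes in the lower and 5.99% in the higher direction.

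DESeq2, fitted to the same libraries, called 2 members lower in CD4IKK1Δ, where it called 4.41% of 11585 genes lower and 0.354% higher. They were Casp1 (log2 fold change −2.50, adjusted p = 0.000743) and Aim2 (−2.18, adjusted p = 0.00940). The median log2 fold change by edgeR was −1.66 over the 6 members tested and 0.02 over all genes. Without CD4IKK1Δ replicates 1 and 2, which had the fewest T cell receptor counts, edgeR called 0 members and 36 of 15091 genes lower. The T cell markers lay below CD4cre as well, all 15 with a negative log2 fold change (median −2.04) and 0 of them called by edgeR (1 at an unadjusted p under 0.05), so the T cell level and the genotype cannot be told apart in this comparison either.

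CD4IKK1Δ against CD4NIKΔ sets the genotypes beside each other directly and is also the test of whether their differences from CD4cre are unequal. Casp1 had a log2 fold change of −5.50 (SE 0.50, FDR = 4.13e-05), a 45.1-fold lower level in CD4IKK1Δ, and Gsdmd one of −4.76 (SE 0.78, FDR = 0.000817). Casp4 (−4.22, SE 0.70, FDR = 0.000525), Aim2 (−3.68, SE 0.51, FDR = 0.000216) and Pycard (−3.48, SE 0.74, FDR = 0.00375) were also lower in CD4IKK1Δ. Il18 was 2.09-fold higher in CD4IKK1Δ (1.07, SE 0.32, FDR = 0.0174), close to the threshold of 2-fold, and this call was lost under several of the alternatives tried, DESeq2 among them, while the direction remained. Il1b did not pass (−1.78, SE 1.70, FDR = 0.434), and 4 of its 5 CD4IKK1Δ libraries had no count. By edgeR's quasi-likelihood test 5 of the 7 members tested were called lower and 1 higher, where 18.5% of the 16546 genes tested were called lower and 14.8% higher. The same members did not overlap between the groups, against 24.6% of genes in the lower and 20.5% in the higher direction, and the median was −3.68 over the 7 members and 0.06 over all genes. Of the 15 T cell markers 14 were called lower in CD4IKK1Δ, and of the 8 neuronal markers all were called higher. With the T cell marker score as a covariate, calls over all 16546 genes fell to 377 lower and 357 higher, from 3068 and 2444, and Casp1 was the 1 member still called lower (log2 fold change −4.11, FDR = 0.0249). The others had log2 fold changes of −3.52 for Gsdmd (FDR = 0.0831), −2.40 for Aim2 (FDR = 0.140), −2.21 for Casp4 (FDR = 0.198) and −1.21 for Pycard (FDR = 0.374).

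**Figure D2:**
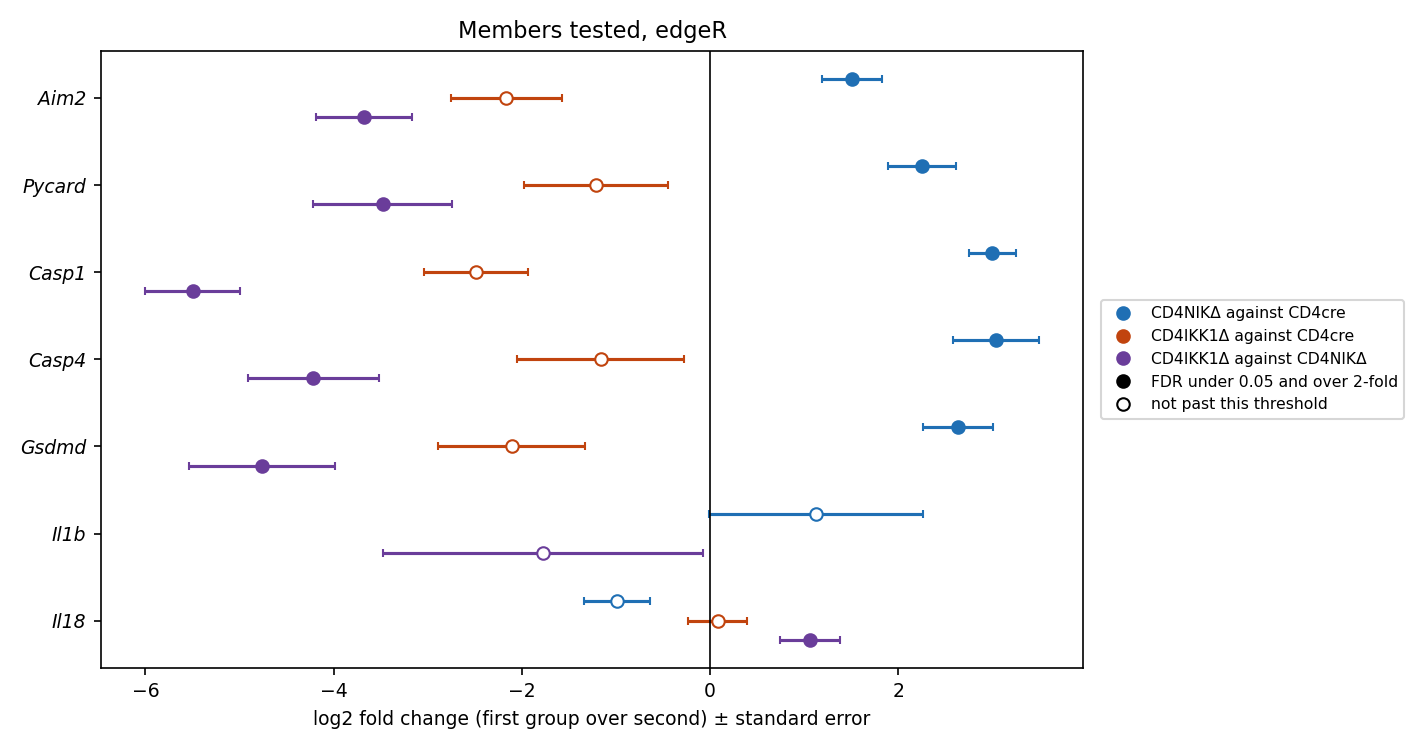
Log2 fold changes of the inflammasome genes other than Nlrp3 with their standard errors in the 3 comparisons, from edgeR's quasi-likelihood fit. Filled points passed the threshold, open ones did not, and genes that did not pass the expression filter have no point. Aim2, Pycard, Casp1, Casp4 and Gsdmd lie above 0 in CD4NIKΔ against CD4cre and below 0 in both comparisons of CD4IKK1Δ. Il18 lies on the other side of 0, but in CD4IKK1Δ against CD4cre its standard error spans 0.

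The markers of cells that could have entered the sort moved with some of these differences. The summed level of 12 monocyte and macrophage markers was 443 to 1915 CPM in CD4cre, 101 to 265 in CD4IKK1Δ and 644 to 987 in CD4NIKΔ, so it was lowest in CD4IKK1Δ and overlapped between CD4cre and CD4NIKΔ. None of the 10 myeloid markers tested was called between CD4NIKΔ and CD4cre, and 5 were called lower in CD4IKK1Δ than in CD4NIKΔ. Among the abundant markers, Lyz2, which encodes lysozyme, was at 82.7 to 352 CPM in CD4cre, 0.943 to 23.5 in CD4IKK1Δ and 174 to 332 in CD4NIKΔ, and the complement gene C1qb at 116 to 597, 27.7 to 88.5 and 161 to 210 CPM. Cd68 ran the other way, at 14.4 to 18.1, 16.1 to 24.9 and 5.85 to 15.8 CPM. It was the 1 marker of the 10 tested with a higher level in CD4IKK1Δ than in each other group. At an unadjusted p under 0.05, 6 of the 10 myeloid markers tested were lower in CD4IKK1Δ than in CD4cre, with 0 called by edgeR. Adgre1, which encodes F4/80, was at 0 in 7 of 11 libraries and at most at 3.00 CPM, and Itgam, which encodes CD11b, was at 0 in all the CD4cre libraries and at most at 2.83 CPM elsewhere. With the myeloid marker score as a covariate, the same 5 members were called higher in CD4NIKΔ than in CD4cre, and 2 of them, Casp1 and Gsdmd, were called lower in CD4IKK1Δ than in CD4NIKΔ. Over all genes these fits called 1626 of 15209 higher in CD4NIKΔ than in CD4cre, and 572 of 16546 lower in CD4IKK1Δ than in CD4NIKΔ, down from 3068. The part of these cells in the members' levels was otherwise not tested.

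Markers of other cells were at these levels. Summed CPM over 8 neutrophil markers was 2.67 to 6.34 in all the libraries, with Ly6g at 0 in 10 of 11. Kidney tubule markers summed to 16.8 to 68.9 CPM in CD4cre, 3.04 to 9.43 in CD4IKK1Δ and 12.1 to 106 in CD4NIKΔ. The sums reached at most 24.4 CPM for B cells, 29.8 for dendritic cells, 85.9 for NK cells and 51.4 for endothelium, each in CD4NIKΔ. Erythroid transcripts, globins among them, summed to 1606 to 2008 CPM in CD4cre, 364 to 1205 in CD4IKK1Δ and 874 to 6117 in CD4NIKΔ. The part of these cells in the members' levels was not tested.

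**Figure D3:**
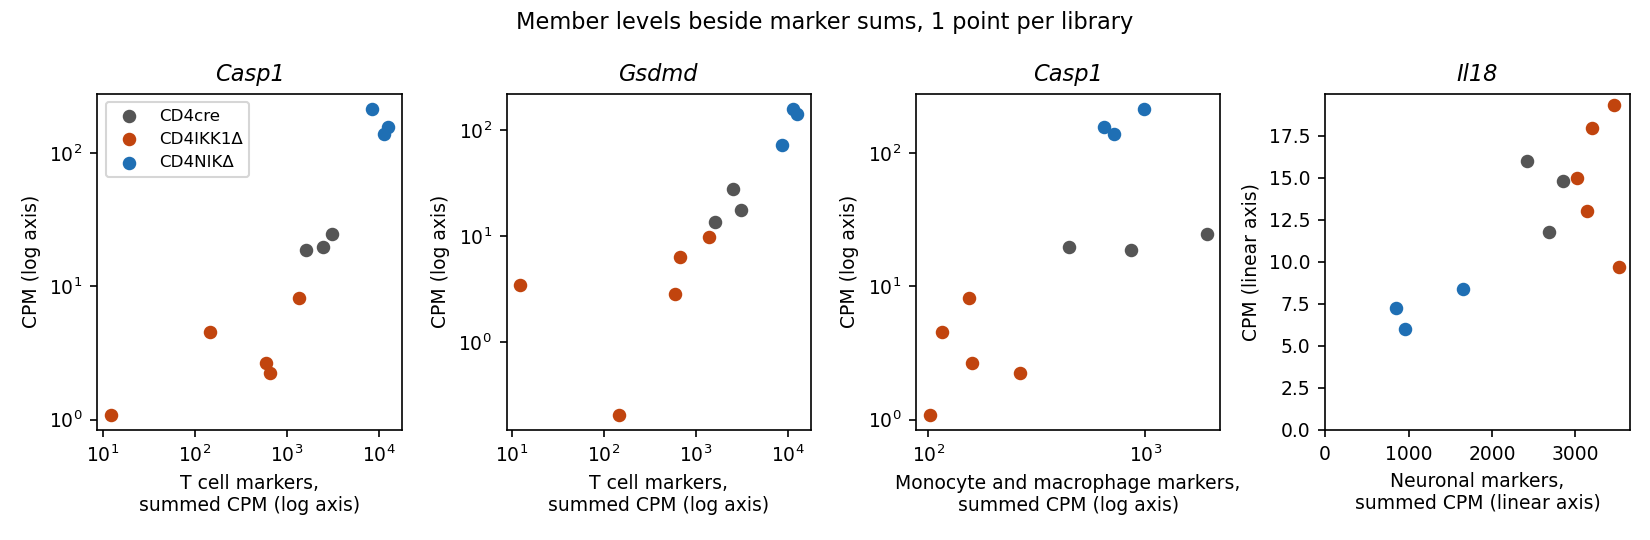
CPM of Casp1, Gsdmd and Il18 (vertical axes) beside summed CPM of T cell, monocyte and macrophage, or neuronal markers (horizontal axes), 1 point per library, on log axes except in the linear Il18 panel. Casp1 and Gsdmd rise with the T cell markers from CD4IKK1Δ through CD4cre to CD4NIKΔ, CD4cre and CD4NIKΔ share the myeloid range but differ in Casp1, and Il18 is lowest in the CD4NIKΔ libraries, which also hold the fewest neuronal transcripts.

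Set against the T cell markers, Casp1 and Casp4 lay higher in CD4NIKΔ than in CD4cre without overlap, Casp1 by a narrow gap, Il18 lay lower, and Gsdmd, Pycard and Aim2 overlapped. As the summed markers in the denominator were higher in CD4NIKΔ, 73.6% of all 15209 genes tested lay lower without overlap on this scale and 1.44% higher, so the place of Il18 is that of most genes. Per 1000 CPM of summed T cell markers, a ratio chosen after the values had been seen, Casp1 was at 7.95 to 11.7 CPM in CD4cre and 12.2 to 25.3 in CD4NIKΔ, and Casp4 at 0.682 to 1.82 and 2.23 to 2.71, so neither gene overlapped between these groups. Gsdmd (5.68 to 11.2 in CD4cre, 8.55 to 13.8 in CD4NIKΔ), Pycard (8.41 to 13.6 and 11.6 to 12.4) and Aim2 (4.54 to 7.53 and 2.95 to 5.44) overlapped. Il18 was at 4.71 to 9.29 CPM per 1000 CPM of T cell markers in CD4cre and 0.526 to 0.985 in CD4NIKΔ. In CD4IKK1Δ the ratios spread widely, from 3.38 to 88.0 for Casp1 and from 9.46 to 1564 for Il18, with the highest ratios in replicate 1, where the markers in the denominator were at 12.4 CPM.

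**Figure D4:**
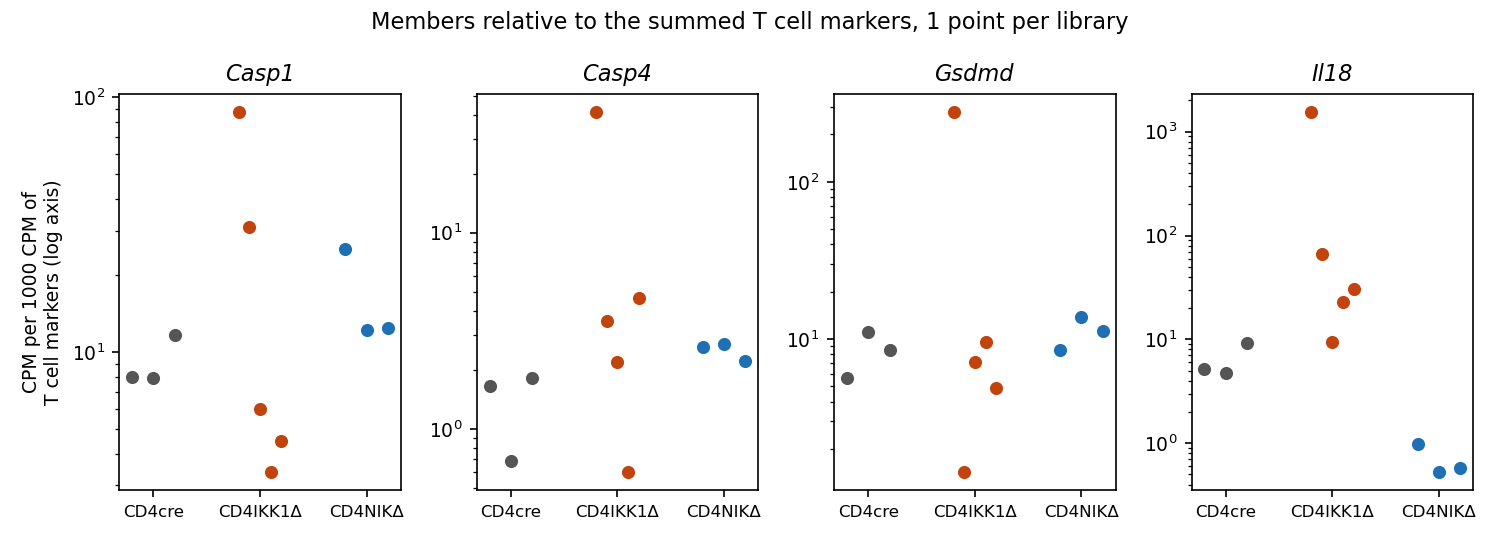
CPM of Casp1, Casp4, Gsdmd and Il18 per 1000 CPM of summed T cell markers, on log axes, 1 point per library. CD4NIKΔ lies above CD4cre without overlap for Casp1 and Casp4, overlaps it for Gsdmd and lies below it for Il18, while CD4IKK1Δ is spread over the widest range.

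Across the 11 libraries Aim2, Pycard, Casp1, Casp4 and Gsdmd followed each other and Il18 ran against them. Many genes did so too, 8037 of 16546 having an r with Casp1 below 0. As a description without a test, and with the genotype and the T cell level shared by the points, Pearson's r of log2 CPM was 0.935 for Pycard and Casp1, 0.92 for Aim2 and Casp1 and for Casp1 and Casp4, and 0.914 for Pycard and Gsdmd, and over all pairs of Aim2, Pycard, Casp1, Casp4 and Gsdmd it lay between 0.745 (Aim2 and Gsdmd) and 0.935. It lay between 0.515 and 0.784 for Il1b and each of these 5 genes, between −0.808 (Casp1) and −0.573 (Gsdmd) for Il18 and each of them, and between −0.232 and 0.16 for Nlrp3 and each other member. Among the 16546 genes past the filter, those most like Casp1 were Dpp3 (r = 0.99), Sdf4 (0.984) and Fam111a (0.984), and those most like Casp4 were Ddb2 (0.989), Xlr4c (0.985) and Cxxc1 (0.983). Pycard was most like P2rx7 (0.987), the ATP-gated channel whose opening is a known trigger of NLRP3, followed by Traf2 (0.986) and Rab37 (0.985). Aim2 was most like Miip (0.991), Zc3h11a (0.985) and Brf1 (0.98), and Gsdmd most like Ints9 (0.982), Trim65 (0.982) and Nde1 (0.979). Il18 was most like Samd4 (0.968), Foxk2 (0.961) and Mkks (0.946), and Il1b most like Pira12 (0.93), Gm26528 (0.923) and Dynlt1c (0.916).

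Beyond the 8 members, 62 other genes of the pathway were listed by role, of which 61 had a row, Tlr2 being the exception. In CD4NIKΔ against CD4cre, 19 of the 46 tested were called higher and 0 lower by edgeR, against the 10.4% and 6.99% of all genes. In CD4IKK1Δ against CD4NIKΔ, 27 of the 49 tested were called lower and 0 higher, against 18.5% and 14.8%. In CD4IKK1Δ against CD4cre, edgeR called 0 of 44, 16 were lower and 0 higher at an unadjusted p under 0.05, against 8.91% and 7.65% of all genes, and DESeq2 called 7 lower, against 4.41% of all genes (Pstpip1, Gbp2, Il18r1, Irak1, Nfkb1, Rela and Stat2). The medians of the log2 fold change over these lists were 1.52, −2.52 and −0.95 in that order.

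Among the other sensors, 3 of 9 tested were called higher in CD4NIKΔ than in CD4cre, against 10.4% of all genes. They were the nucleic acid sensors Zbp1 (13.3 to 54.6 CPM, log2 fold change 2.02, FDR = 0.0120), Ifi203 (14.2 to 116 CPM, 3.01, FDR = 0.0159) and Ifi204 (2.06 to 9.65 CPM, 2.21, FDR = 0.0462). No sensor of bacterial proteins or toxins was called, Nlrc4 for instance being at 3.08 CPM in CD4cre and 2.73 in CD4NIKΔ (−0.20, FDR = 0.822). Against CD4NIKΔ, CD4IKK1Δ was lower in 5 of 11 sensors tested, where 18.5% of all genes were called lower. They were Zbp1, Ifi203, Ifi204, Nlrp1b (−4.03, FDR = 0.0221) and Naip2. Nlrp1b had 0, 0, 6, 0 and 2 counts in CD4IKK1Δ and 12, 62 and 11 in CD4NIKΔ. Naip2 had no count in CD4IKK1Δ and 50, 0 and 12 counts in CD4NIKΔ, so the groups overlapped. DESeq2 did not call Naip2 (adjusted p = 0.0513).

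By number, regulators of assembly formed the pathway list with the most calls. Over all genes, 10.4% were called higher in CD4NIKΔ than in CD4cre, and 18.5% lower in CD4IKK1Δ than in CD4NIKΔ. The same calls covered 13 and 14 of the 15 T cell markers. Of 8 tested, 6 were higher in CD4NIKΔ than in CD4cre, among them the guanylate-binding proteins Gbp2 (10.2 to 69.4 CPM, log2 fold change 2.75, FDR = 0.00484), Gbp3 (1.20 to 41.3 CPM, 5.05, FDR = 0.0165) and Gbp5 (10.1 to 28.9 CPM, 1.49, FDR = 0.0197), interferon-induced GTPases that open pathogen vacuoles and help caspase-11 to meet its ligand. Nek7, a kinase that NLRP3 needs to assemble, rose from 25.3 to 133 CPM (2.38, FDR = 0.00702), P2rx7 from 11.8 to 70.2 CPM (2.56, FDR = 0.00895) and Pstpip1, which binds pyrin, from 76.6 to 223 CPM (1.52, FDR = 0.00435). Txnip (1.13, FDR = 0.116) and Brcc3 (0.36, FDR = 0.260) did not pass. Against CD4NIKΔ, CD4IKK1Δ was lower in 7 of 8, Txnip included (−4.34, FDR = 0.00984) and Brcc3 not.

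Casp8, the initiator caspase of death-receptor apoptosis, was called higher in CD4NIKΔ than in CD4cre. It was at 35.3 CPM in CD4cre and 174 in CD4NIKΔ (log2 fold change 2.29, FDR = 0.0157) and was lower in CD4IKK1Δ than in CD4NIKΔ, with a log2 fold change of −5.34 (FDR = 0.00293). Gasdermins other than Gsdmd and the membrane rupture gene Ninj1 gave 0 calls in either of these comparisons by edgeR, of 3 genes tested in each, and 0 passed an unadjusted p under 0.05. Gsdme was at 11.0 CPM in CD4cre and 5.36 in CD4NIKΔ (−1.06, FDR = 0.229), and Ninj1, whose product ruptures the membrane at the end of pyroptosis, at 84.2 and 59.3 CPM (−0.52, FDR = 0.185).

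**Figure D5:**
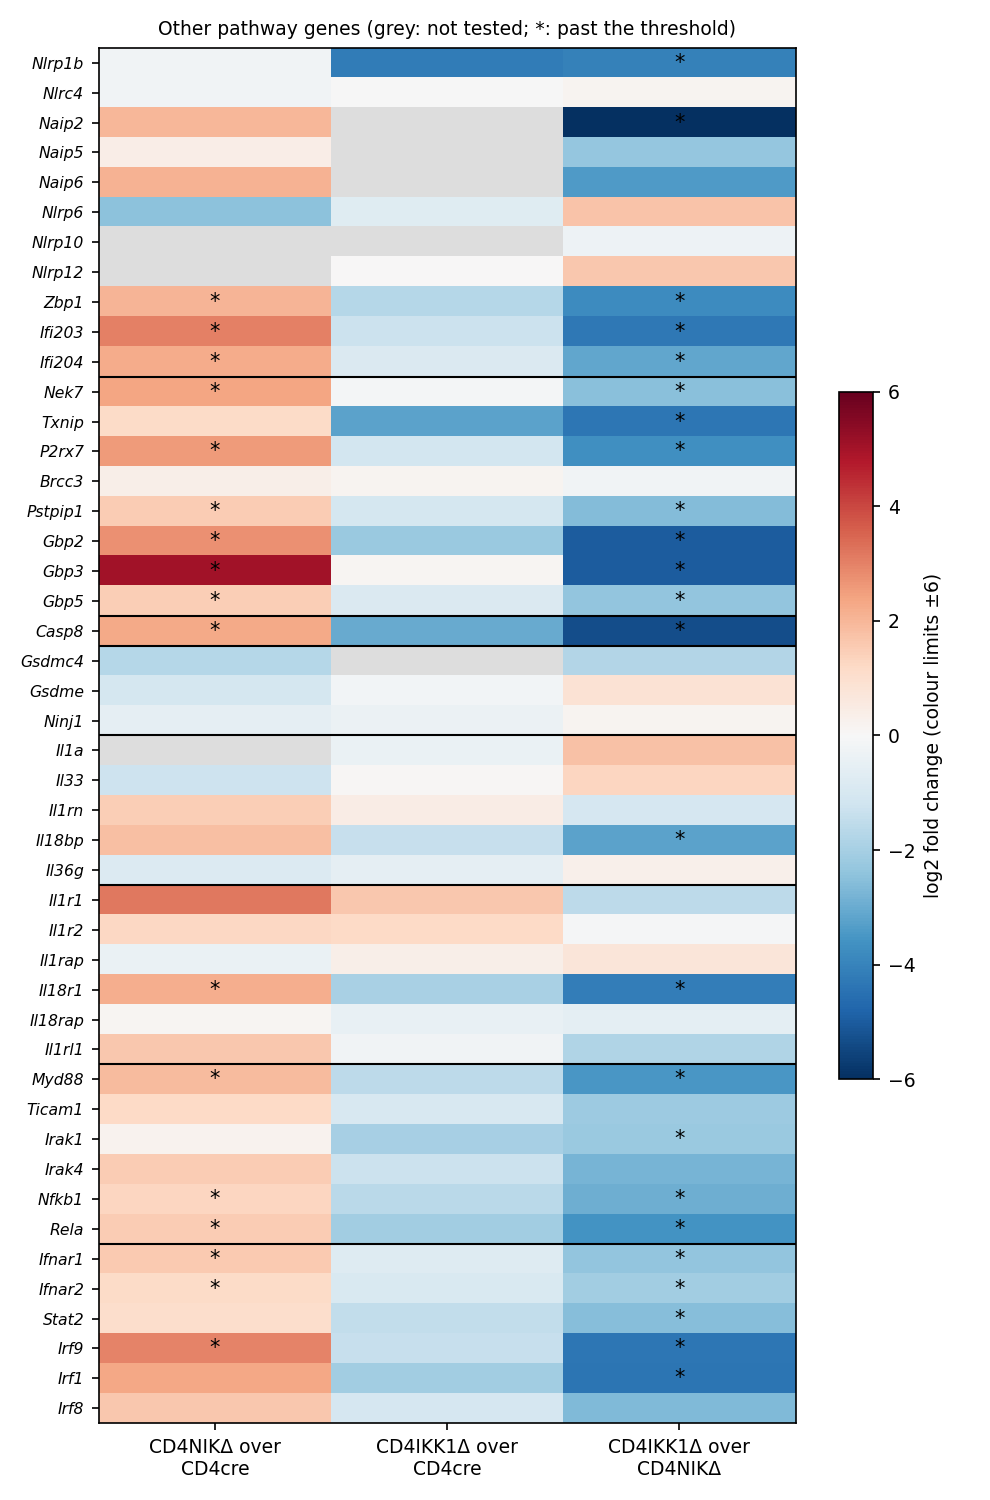
Log2 fold changes of the other pathway genes reported here in the 3 comparisons, 1 row per gene and grouped by role; the colour gives the fold change with limits of ±6, reached by Naip2 alone, grey marks genes not tested and an asterisk those past the threshold. No asterisk falls in CD4IKK1Δ over CD4cre, and in the other comparisons they are dense among regulators of assembly, such as Gbp2 and Nek7, and among interferon signalling genes, such as Irf9.

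Ligands and receptors of the IL-1 family gave few calls. None of 4 ligands or antagonists tested was called in CD4NIKΔ against CD4cre by edgeR, and 1 of the 4 was higher at an unadjusted p under 0.05. That gene was Il18bp, whose product neutralizes interleukin-18 (2.83 to 10.2 CPM, log2 fold change 1.82, FDR = 0.0560), and it was lower in CD4IKK1Δ than in CD4NIKΔ (−3.21, FDR = 0.0417). Of 6 receptor chains, Il18r1, the ligand-binding chain for interleukin-18, rose from 13.3 CPM in CD4cre to 61.4 CPM in CD4NIKΔ (2.20, FDR = 0.0118) and was at 3.43 CPM in CD4IKK1Δ (−4.15 against CD4NIKΔ, FDR = 8.83e-05). Its partner chain Il18rap was at 10.4 CPM in CD4cre and 11.5 in CD4NIKΔ (0.13, FDR = 0.837).

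Priming of the inflammasome depends on NF-κB and on interferons. None of the 6 genes of toll-like receptor and NF-κB signalling tested was a receptor. Of these 6, the adaptor Myd88 (26.9 to 103 CPM, log2 fold change 1.92, FDR = 0.0193), Rela (50.1 to 144 CPM, 1.51, FDR = 0.00556) and Nfkb1 (45.8 to 114 CPM, 1.29, FDR = 0.0341) were higher in CD4NIKΔ than in CD4cre. Those 3 and Irak1 (−2.22, FDR = 0.00950) were lower in CD4IKK1Δ than in CD4NIKΔ. Among the interferon signalling genes, Irf9, the DNA-binding part of the complex that recognizes interferon response elements, rose from 15.5 CPM in CD4cre to 122 CPM in CD4NIKΔ (2.96, FDR = 0.00255). The receptor chains Ifnar1 (1.58, FDR = 0.0180) and Ifnar2 (1.14, FDR = 0.0232) were also called higher in CD4NIKΔ. In CD4IKK1Δ against CD4NIKΔ these 3 were lower, as were Stat2 (−2.54, FDR = 0.000276) and Irf1 (−4.40, FDR = 0.00158). As for the members, the T cell markers moved with these calls. With the T cell marker score as a covariate, edgeR called 0 of these pathway genes in place of 19 between CD4NIKΔ and CD4cre, and 5 in place of 27 between CD4IKK1Δ and CD4NIKΔ. Calls over all genes fell in the same fits, from 1063 lower and 1586 higher to 0 and 0, and from 3068 lower and 2444 higher to 377 and 357.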

How the data were processed

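RNA sequencing of sorted renal CD4+ T cells covered 11 libraries from as many mice, with groups from the labelled genotype (CD4cre 3, CD4IKK1Δ 5, CD4NIKΔ 3). The authors trimmed reads with Trimmomatic, quantified them with kallisto and deposited unnormalized estimated counts per gene symbol. The paper names GRCm39 and the submitters' processing notes mm10, and the kallisto version and annotation are not given in the sources used here. No library pair held identical values.

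Estimated counts were rounded, filtered by expression, scaled by TMM and compared by the robust quasi-likelihood test of edgeR (version 4.0.16, in R 4.3.3). Adjustment over all genes tested was by Benjamini and Hochberg's method (FDR). Called means an FDR under 0.05 and over 2-fold. Comparisons with CD4cre used their own groups, and CD4IKK1Δ against CD4NIKΔ used all 11 libraries. The log2 CPM carry a prior count of 2. The floor of 3 counts covers counting error only.

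The members, gene lists and tests were chosen with earlier results of these data known. Named genes are the members, the listed pathway genes called in any comparison (from a list without calls, the 2 with the highest mean CPM), Nlrc4, Brcc3 and Il18rap, added after their values were seen, and the 3 genes most like each member. Some listed genes count in the totals but are not reported here by name. Alternatives were DESeq2 (1.42.0), RLE, upper-quartile and library-size scaling, other filters, a non-robust fit, the replicate number as a block, marker scores as covariates, other sets of libraries and thresholds, and leaving out each library. Positions are from GENCODE M39 (GRCm39), and promoters from RefSeq (table build GRCm38.p6).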

Additional observations from a re-analysis of the deposited data

Results flagged for a closer look

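Of the levels of the members within the 5 CD4IKK1Δ libraries, 2 had a single library far from the rest. Pycard was at 36.5 CPM in CD4IKK1Δ replicate 3, with a gap to the next library of 0.840 of the whole range, and Il1b was at 1.35 CPM in CD4IKK1Δ replicate 5, the others having no count. How often chance alone flags such a group is not known for these values. For Il1b any count in a single library would have been flagged, as the others had none.

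For 6 members the difference from CD4cre was unequal between CD4IKK1Δ and CD4NIKΔ, by edgeR's quasi-likelihood test of CD4IKK1Δ against CD4NIKΔ over all 11 libraries. The log2 fold changes were −3.68 for Aim2, −3.48 for Pycard, −5.50 for Casp1, −4.22 for Casp4, −4.76 for Gsdmd and 1.07 for Il18. T cell, myeloid and neuronal markers moved with these differences. With the T cell marker score as a covariate Casp1 kept its call, with the myeloid score Casp1 and Gsdmd did, and the part of the neuronal transcripts was not tested.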

How the results depend on the processing

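In CD4NIKΔ against CD4cre, 5 members were called higher under RLE, upper-quartile and library-size scaling, both other filters, the non-robust fit, the myeloid covariate and DESeq2. The number fell to 0 with the T cell marker covariate and to 2 with all 11 libraries in the fit (Casp1 and Casp4), and the 19 other pathway genes to 0 and 12. Upper-quartile scaling called 1 member lower (Il18). Leaving out 1 library, 8 (without CD4NIKΔ replicate 3) to 21 other pathway genes were called higher and 0 to 1 lower. Over all genes, these fits called 614 to 1703 higher and 60 to 1773 lower, the fewest in each direction without CD4NIKΔ replicate 3. With all 11 libraries, 865 genes were called higher and 1264 lower, against 1586 and 1063 in the main fit. Il1b turned to −0.16 (log2) with the T cell covariate.

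In CD4IKK1Δ against CD4cre, members called lower went from 0 to 1 with a minimum of 10 counts in every library, 2 with DESeq2 and 1 with all 11 libraries, and other pathway genes from 0 to 7 with DESeq2, 1 without the 2 libraries with the fewest T cell receptor counts, and 0 to 1 leaving out 1 library (1 without CD4IKK1Δ replicate 3). Casp4 turned to 0.71 with the myeloid covariate and ran from −1.615 to −0.671 leaving out 1 library. Pycard ran from −2.300 to −0.974 leaving out 1 library and reached −0.033 in another alternative. Il18, near 0, turned to −0.04 with the T cell covariate and ran from −0.034 to 0.204 leaving out 1 library.

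In CD4IKK1Δ against CD4NIKΔ, members called lower fell from 5 to 3 with the 10-count filter, which Casp4 and Gsdmd did not pass, to 1 with the T cell covariate (Casp1) and to 2 with the myeloid covariate, and other pathway genes from 27 to 5 and 7, while all genes called lower fell from 3068 to 377 and 572. The call on Il18 went from 1 to 0 with RLE, the 10-count filter, the replicate block, either covariate and DESeq2, and to 0 to 1 leaving out 1 library (lost without CD4IKK1Δ replicate 1 or 5, or CD4NIKΔ replicate 2 or 3). Il1b turned to 3.95 and 1.48 with the T cell and myeloid covariates, and was called lower without CD4IKK1Δ replicate 5. The causes were not tested.

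Replicate numbers of the labels did not pair the libraries, with correlations of deviations between −0.09 and 0.08. With the replicate number as a block, Il18 in CD4IKK1Δ against CD4cre turned to −0.064, Il1b was called lower in CD4IKK1Δ against CD4NIKΔ, and genes called in CD4NIKΔ against CD4cre went from 1063 lower and 1586 higher to 190 and 995.

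Upper-quartile scaling shifted the median log2 fold change of all genes to 0.11 in CD4IKK1Δ against CD4cre, −0.16 in CD4NIKΔ against CD4cre and 0.30 in CD4IKK1Δ against CD4NIKΔ, and the share of lower among called genes from 40.1% to 55.1% in CD4NIKΔ against CD4cre (51.0% by library size) and from 55.7% to 44.5% in CD4IKK1Δ against CD4NIKΔ. DESeq2 called 511 genes lower and 41 higher in CD4IKK1Δ against CD4cre, where edgeR called 0. At these depths Nlrp3 and Il1b were too sparse to rank the genotypes.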
